A study of Mus musculus with 12 samples.

Results

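The lysosome breaks down proteins, sugar chains and lipids that reach it by endocytosis, phagocytosis and autophagy, in an acid lumen kept by a proton pump. Proximal tubule cells, which take up filtered protein from the urine, and macrophages are both rich in lysosomes. The transcription factor TFEB, with its relatives TFE3 and MITF, is known to switch on many lysosomal genes together through a promoter element named CLEAR. Described here are 42 genes of lysosomal proteases, hydrolases, membrane proteins and TFEB itself, taken as the probe sets whose annotated symbol is one of those genes. The annotation gave 92 such probe sets for 41 of the 42 genes, out of 45101 probe sets on the array. All 41 passed the filter on low signal and are among the 12385 genes tested. The remaining gene, Cd63, had no probe set with that symbol alone and was not analysed here.

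Cortex RNA was measured in ICGN mice at 4 weeks of age, ICR mice at 4 weeks, ICGN mice at 8 weeks and ICR mice at 8 weeks, on 3 arrays (Affymetrix Mouse Genome 430 2.0) a group and 12 in all. ICGN mice derive from ICR stock, are labelled with nephrotic syndrome and are known to carry a mutation of the adaptor gene Tns2. ICR mice are labelled normal, and the labels record no treatment. The comparison is therefore of strains, which can differ at other loci as well. Each description speaks of a single mouse without saying that replicates are separate animals, so p-values may rest on a technical spread alone. Sex is not given in the labels. Tns2 read 35 ± 6.86 in ICGN and 148 ± 5.29 in ICR at 4 weeks, and 35.3 ± 19.6 in ICGN and 139 ± 8.58 in ICR at 8 weeks (SD, n = 3). Within a group, log2 values of any 2 arrays correlated with r of at least 0.977 across genes, and no array stood apart. All 14 listed proximal tubule markers and 4 of 6 podocyte markers passed the filter. In cortex RNA, fewer cells of a type and less RNA per cell cannot be told apart. Values are scaled probe set signals, a unit of array brightness that allows one gene to be compared between arrays but not with another gene. Fold changes are log2 values from one limma fit, with the standard error (SE), and a gene is called at a Benjamini-Hochberg adjusted p of 0.05 or less over all tested genes. "Higher" and "lower" refer to ICGN against ICR unless ages are compared.

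Promoter sequence is shown first, for members on either side of the strain comparison at 8 weeks. RefSeq windows (GRCm38.p6) of 250 bases before to 50 after the gene start were found for 38 of the 42 genes. On either strand, 12 of the 38 genes (31.6%) held TCACGTG, which forms most of the CLEAR element and itself contains the shorter CACGTG, against 4.29% of the 27025 genes with a window of that length. The shorter CACGTG stood in 14 of 38 (36.8%) against 8.09% of all genes. GAGGAAGT, a form of the site of the myeloid factor PU.1, stood in Ctsc, Ctss, Gla and Gusb (10.5%), against 3.69%. A match describes letters and is no measured binding site. The windows below run 5′ to 3′ along the gene, 60 bases each, with complete matches of the named motif, on either strand, in capitals. All lie before the annotated gene start except that of Ctss, which spans it.

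Of the 4 members with GAGGAAGT, 3 were higher at 8 weeks (Ctss, Ctsc and Gla) and 1 was lower, Gusb, which had the largest fall. Among all 41 tested members 19.5% were higher and 36.6% lower, and among all tested genes 11.7% and 22.2%. A count of 4 is too small to compare with those shares. The call of Gla held in 7 of 11 alternatives and in 2 of the 6 fits without 1 array. Shown are the 2 carriers with the largest rise, with the motif read on the opposite strand. The match in Gusb lies after the gene start and is not shown.
Ctss, chr3:95526741-95526800, plus strand: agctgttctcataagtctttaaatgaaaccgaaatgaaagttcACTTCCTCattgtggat
Ctsc, chr7:88277908-88277967, plus strand: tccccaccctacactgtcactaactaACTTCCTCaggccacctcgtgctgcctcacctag

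Members with TCACGTG that were lower at 8 weeks are
Glb1, chr9:114401002-114401061, plus strand: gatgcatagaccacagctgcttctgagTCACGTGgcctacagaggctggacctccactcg
Sgsh, chr11:119355511-119355570, minus strand: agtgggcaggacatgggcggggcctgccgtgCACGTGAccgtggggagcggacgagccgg
Mcoln1, chr8:3500420-3500479, plus strand: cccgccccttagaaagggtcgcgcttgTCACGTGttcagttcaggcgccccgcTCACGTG

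Members with TCACGTG that were higher, and 1 that was not called, are
Cln3 (higher), chr7:126583353-126583412, minus strand: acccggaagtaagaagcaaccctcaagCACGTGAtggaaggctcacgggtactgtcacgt
Arsa (higher), chr15:89477425-89477484, minus strand: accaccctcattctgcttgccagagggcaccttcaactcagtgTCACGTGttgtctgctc
Lamp1 (not called), chr8:13159072-13159131, plus strand: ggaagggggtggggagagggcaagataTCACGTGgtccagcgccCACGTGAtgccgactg

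Of the 12 members with TCACGTG, 3 were higher at 8 weeks (25%: Cln3, Arsa and Gla), 4 were lower (33.3%: Mcoln1, Glb1, Naglu and Sgsh) and 5 were not called (Ctsa, Ctsd, Lamp1, Gaa and Lgmn). Of all 41 tested members 19.5% were higher and 36.6% lower, and of all tested genes 11.7% and 22.2%, so carriers are not set apart from the other members by these counts. Strain calls at 4 and 8 weeks that changed with the processing are given with each gene.

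The strain comparison at 4 weeks asks how lysosomal genes stood in the younger nephrotic strain. The cysteine cathepsin genes Ctss and Ctsc, the aspartic protease gene Ctsd and the membrane protein gene Scarb2 were higher in ICGN, and the β-galactosidase gene Glb1 was lower. That is 4 of 41 members higher (9.76%) against 2.11% of all tested genes, and 1 lower (2.44%) against 1.95%. With the authors' scaling the members' counts were the same, while all genes split into 343 higher and 208 lower, against 261 and 241 here. Arrays of the strains did not overlap for 10 members on the higher side and 1 on the lower side, against 12.1% and 12.4% of all genes. The other 36 were not called, and the median log2 fold change of the members was 0.04, against -0.01 for all genes. Without any 1 of the 4-week arrays the count of higher members was 1 or 2. Ctss was called in every one of those 6 fits.

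Ctss encodes cathepsin S, a cysteine protease of antigen-presenting cells that cuts the invariant chain of class II molecules. At 4 weeks its signal was 294, 297 and 362 in ICGN, against 166, 149 and 86.7 in ICR. The lowest ICGN array was well above the highest ICR array, and the log2 fold change was 1.26 ± 0.19 (SE, limma adjusted p = 0.00226). Ctsc encodes cathepsin C, which activates granule proteases of leukocytes. Its signal was 521, 468 and 513 in ICGN, against 266, 337 and 345 in ICR (0.66 ± 0.16, adjusted p = 0.0299). Those groups did not overlap either, but the call held only without ICR replicate 3 among the 6 fits that left out 1 array (highest adjusted p over all alternatives 0.114). Scaling to the array median, no filter and no mean-variance trend ended the Ctsc call as well.

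The smaller rises at 4 weeks lay near the threshold. Ctsd, the main aspartic protease of the lysosome, read 1318, 1355 and 1293 in ICGN, against 1028, 1038 and 1079 in ICR (0.33 ± 0.09, adjusted p = 0.047). Scarb2, which encodes the membrane receptor LIMP-2 that carries glucocerebrosidase to lysosomes, read 404, 419 and 484 in ICGN, against 327, 370 and 327 in ICR (0.34 ± 0.09, adjusted p = 0.0469). Both genes had groups that did not overlap. Scaling to the array median ended both calls (adjusted p = 0.152 and 0.125), as did leaving out any 1 array for Ctsd, and any but ICR replicate 2 for Scarb2. A second Scarb2 probe set gave 0.78 with an adjusted p of 0.00335 over probe sets. Glb1, whose enzyme removes galactose from gangliosides and keratan sulfate, read 373, 417 and 586 in ICGN, against 1010, 907 and 699.5 in ICR (-0.93 ± 0.18, adjusted p = 0.0103). All ICR arrays were above all ICGN arrays, and this call was lost without ICGN replicate 1 or replicate 2 (highest adjusted p = 0.0563).

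In the older mice, at 8 weeks, members differed in direction. Of the cysteine cathepsin genes, Ctss was 4.75-fold and Ctsc 3.36-fold higher in ICGN, and Ctsh was lower. Lower were 6 of 11 glycosidases, 3 of 4 sulfatases and 3 of 7 genes of lipid handling, led by Gusb, Glb1, Sgsh, Arsb, Neu1, Smpd1, Man2b1 and Galc. The cathepsin genes Ctsb, Ctsl and Ctsz and the asparaginyl protease gene Lgmn were not called. In all, 8 of 41 members were higher (19.5%) against 11.7% of all tested genes, 15 were lower (36.6%) against 22.2%, and 18 were not called. The median of the members was -0.11, next to -0.10 for all genes, while the median size of the change without its sign was 0.41, against 0.28. The 3 arrays of a group did not overlap for 9 members on the higher side (16% of all genes) and 18 on the lower side (29.8% of all genes).

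The split between higher and lower depended on the scaling. With the authors' scaling 11 members were higher and 10 lower, with 2224 and 1487 of all genes, and with quantile normalization 12 were higher and 9 lower, with 1702 and 1667 of all genes. The median log2 fold change of all genes was -0.10 as reported, 0.05 with the authors' scaling, -0.03 with quantile normalization and -0.18 with the array median, and that of the members was -0.11, 0.04, 0.06 and -0.21. Directions given here are relative to the scaling used. Of the 23 members called, 14 stayed called in the same direction under each of the alternatives that could test them and without any 1 array. They were Ctsc, Ctss, Hexa, Arsa and Scarb2 on the higher side and Galc, Glb1, Gusb, Man2b1, Neu1, Sgsh, Arsb, Smpd1 and Asah1 on the lower side.

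**Figure D1:**
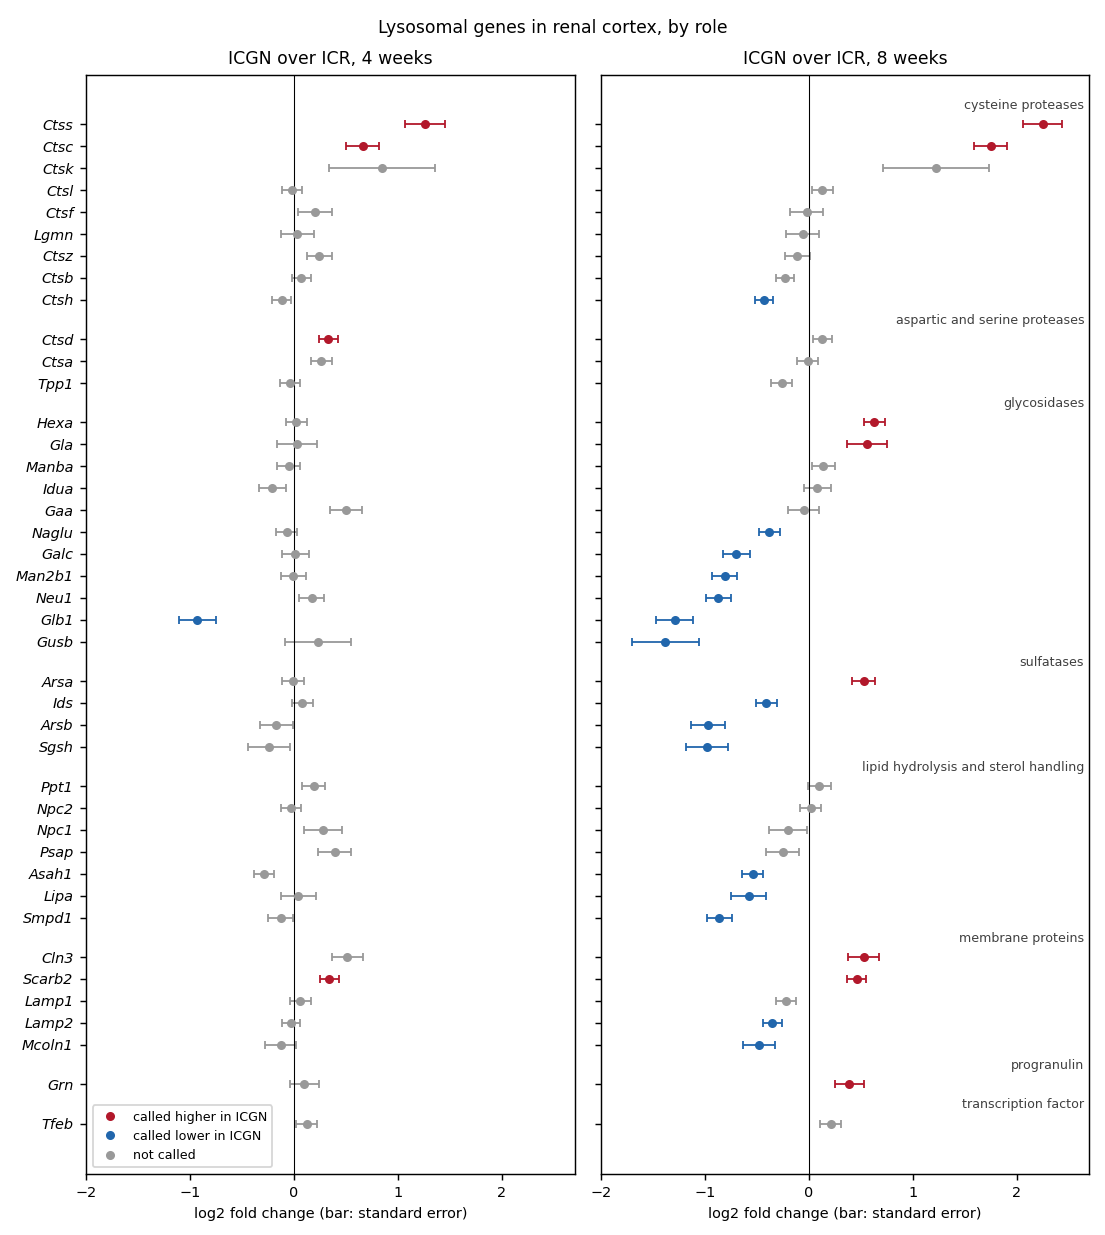
Log2 fold change (ICGN over ICR, x axis) of the 41 tested lysosomal genes, grouped by role, at 4 weeks (left) and 8 weeks (right). Points are estimates, bars are standard errors, and colour marks the call. At 4 weeks 5 points are coloured, and at 8 weeks 23, with Ctss (2.25) and Gusb (-1.38) at the ends.

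Among 9 cysteine proteases at 8 weeks, 2 were higher and 1 lower, with a median of -0.02. Ctss read 1020, 876 and 826 in ICGN, against 200, 160 and 202 in ICR (2.25 ± 0.19, adjusted p = 4.2e-06). Ctsc read 557, 580 and 677 in ICGN, against 134.5, 179 and 224.5 in ICR (1.75 ± 0.16, adjusted p = 5.91e-06), and its second probe set gave 1.16. For both genes the lowest ICGN array lay far above the highest ICR array. Ctsk, the collagen-degrading cathepsin of osteoclasts and fibroblasts, read 101, 52.7 and 84.0 in ICGN, against 36.9, 52.8 and 12.9 in ICR. These groups overlapped, and its estimate of 1.22 ± 0.51 did not pass (adjusted p = 0.082). Ctsh, an aminopeptidase cathepsin, was lower, at 1356, 1401 and 1376 in ICGN, against 1673, 1855 and 2076 in ICR (-0.43 ± 0.09, adjusted p = 0.00247), a call lost under quantile normalization (-0.13, adjusted p = 0.169). A second Ctsh probe set gave -0.30 without a call (adjusted p = 0.0946 over probe sets). The fold changes of Ctsb, Ctsl, Ctsf, Ctsz and Lgmn lay between -0.23 and 0.13 with adjusted p of 0.0743 or more. Of the aspartic and serine proteases, Ctsd (0.13), Ctsa (-0.01) and the tripeptidyl peptidase gene Tpp1 (-0.26) were not called.

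Macrophage markers were higher in the same arrays as Ctss and Ctsc. Of 16 tested markers 10 were higher and 0 lower at 4 weeks, and 15 were higher and 0 lower at 8 weeks, when Mpeg1 stood at 2.17 ± 0.18, C1qc at 2.07 ± 0.20, Ms4a7 at 2.07 ± 0.19 and C1qa at 1.94 ± 0.19. Among all tested genes 2.11% were higher at 4 weeks and 11.7% at 8 weeks. Csf1r was not called at 4 weeks (-0.27 ± 0.15) or at 8 weeks (-0.03 ± 0.15). Its 8-week means of 889 in ICGN and 922 in ICR enter the sums below. Mpeg1 (1.43) and Ms4a7 (1.26) had the largest called changes at 4 weeks. The summed signal of the 16 markers was 1900 to 2170 in ICGN and 1160 to 1600 in ICR at 4 weeks, and 3140 to 3890 in ICGN and 1550 to 2030 in ICR at 8 weeks. Ms4a7 and Aif1 were above the array median in ICGN alone and so passed the filter only through the strain where they are high. Of the other 14, 8 were higher at 4 weeks and 13 at 8 weeks. No tested marker of the list was at 0 on any array, and its member Itgam did not pass the filter. Only 2 of 8 lymphocyte markers passed the filter, and neither was called. The part of these cells in the rise of Ctss and Ctsc was not tested.

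Of 11 glycosidases 2 were higher and 6 lower at 8 weeks, with a median of -0.38. Gusb encodes β-glucuronidase, an enzyme of glycosaminoglycan breakdown that androgens are known to induce in mouse kidney. Its signal was 194, 232 and 201 in ICGN, against 270, 604 and 1017 in ICR (-1.38 ± 0.32, adjusted p = 0.00459). The groups did not overlap, yet the ICR arrays spread widely, and without ICR replicate 1 the estimate was -1.89 and without ICR replicate 3 it was -0.94. A second Gusb probe set gave -0.96 (adjusted p = 0.0457 over probe sets). Glb1 read 394.5, 498 and 446 in ICGN, against 1011, 1353 and 961.5 in ICR (-1.29 ± 0.18, adjusted p = 1.55e-04). It was the single member lower at both ages, and the difference between the ages did not pass (-0.36 ± 0.25, adjusted p = 0.383).

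Neu1, the sialidase that trims sialic acid from glycoproteins, read 772, 889 and 730.1 in ICGN, against 1331, 1655 and 1393 in ICR, or 1.82-fold lower (adjusted p = 1.87e-04). Its second, dimmer probe set gave -0.31 (adjusted p = 0.304). Man2b1, the lysosomal α-mannosidase, read 810.4, 633 and 678.5 in ICGN, against 1180, 1341 and 1192 in ICR (-0.81 ± 0.12, adjusted p = 2.97e-04). Galc, which removes galactose from the myelin lipid galactosylceramide, read 392, 503 and 456.5 in ICGN, against 608, 803 and 796 in ICR (-0.70 ± 0.13, adjusted p = 0.00122). In each of these genes every ICGN array was below every ICR array. Second, dimmer probe sets of Man2b1 (-0.25, adjusted p = 0.546 over probe sets) and Galc (-0.62, adjusted p = 0.118) were not called. Naglu, of heparan sulfate breakdown, was lower as well (-0.38 ± 0.10), a call lost under the authors' scaling, quantile normalization and the stricter filter (highest adjusted p = 0.127).

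Hexa, the α subunit of β-hexosaminidase that degrades GM2 ganglioside, went the other way. Its signal was 716, 645 and 612 in ICGN, against 433, 389 and 451 in ICR (0.63 ± 0.10, adjusted p = 5.56e-04), with no overlap. Gla, the α-galactosidase missing in Fabry disease, was dim, at 42.7, 50.4 and 61.3 in ICGN, against 41.8, 29.2 and 28.9 in ICR (0.56 ± 0.19, adjusted p = 0.037). That call was lost without replicate 2 or 3 of either strain, with an adjusted p of up to 0.147 over all alternatives. The array median, quantile normalization, no filter and the replicate block ended it as well. Manba, Idua and the acid α-glucosidase gene Gaa were not called, with fold changes of 0.14, 0.08 and -0.05.

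Of the 4 sulfatases 3 were lower and 1 higher at 8 weeks. Arsb, which removes sulfate from dermatan and chondroitin sulfate, read 886, 1166 and 934 in ICGN, against 1631, 1995 and 2235 in ICR (-0.97 ± 0.16, adjusted p = 4.61e-04), and a second probe set gave -1.18. Sgsh, the heparan N-sulfatase, read 45.4, 35.5 and 29.8 in ICGN, against 75.3, 70.6 and 84.2 in ICR (-0.98 ± 0.20, adjusted p = 0.00191). The groups of both genes stood apart. Ids, the iduronate sulfatase, was lower at -0.41 ± 0.10, but 3 other probe sets of it that passed the filter were not called, and the call was lost under the authors' scaling, quantile normalization and the mean of the probe sets (highest adjusted p = 0.237). Arsa, which removes sulfate from sulfatide, was higher, at 177, 135 and 143 in ICGN, against 102.5, 112 and 93.9 in ICR (0.53 ± 0.11, adjusted p = 0.00297).

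Of 7 genes of lipid hydrolysis and sterol handling 3 were lower and 0 higher. Smpd1, the acid sphingomyelinase, read 462, 473 and 434 in ICGN, against 671, 880.4 and 972 in ICR (-0.86 ± 0.12, adjusted p = 1.87e-04), and its other probe set gave -0.48 (adjusted p = 0.0265 over probe sets). Asah1, the acid ceramidase, was lower at -0.54 ± 0.10 (adjusted p = 0.00125). Lipa, the acid lipase that frees cholesterol and fatty acids, was lower at -0.58 ± 0.17 (adjusted p = 0.0192) on all 3 of its probe sets (-0.60, -0.42 and -0.58), though not under the authors' scaling, quantile normalization or the stricter filter, nor without ICGN replicate 1, ICR replicate 1 or ICR replicate 3 (highest adjusted p = 0.179). Psap, the saposin precursor, and Ppt1, a depalmitoylating enzyme, were not called, and neither were the cholesterol exporters Npc1 and Npc2, at -0.20 and 0.02.

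Membrane proteins split 2 higher and 2 lower of 5. Scarb2 read 673, 637.5 and 654 in ICGN, against 471, 487 and 468 in ICR (0.46 ± 0.09, adjusted p = 0.00159). Cln3, mutated in juvenile Batten disease, read 67.5, 49.9 and 70.1 in ICGN, against 41.0, 42.7 and 40.4 in ICR (0.53 ± 0.15, adjusted p = 0.0176). Both were higher with no overlap between the groups, but Cln3 lost its call without the filter and without ICGN replicate 1 or 3 (highest adjusted p over all alternatives 0.0881). Lamp2, an abundant glycoprotein of the lysosomal membrane needed for chaperone-mediated autophagy, read 3035, 3145 and 3098 in ICGN, against 3924, 3561 and 4354 in ICR (-0.35 ± 0.09, adjusted p = 0.0113). That is 1 of its 4 probe sets, the other 3 gave -0.15, -0.21 and -0.03 without a call, and the call was lost under quantile normalization (-0.01), the authors' scaling (-0.19), the mean of the probe sets (-0.18) and without ICR replicate 3. Lamp1, its relative, read 3495, 3845 and 3590 in ICGN, against 3990, 4104 and 4669 in ICR, and did not pass (-0.22 ± 0.10, adjusted p = 0.0922). At 4 weeks Lamp1 read 3108, 3570 and 3967 in ICGN, against 3447, 3351 and 3395 in ICR, and Lamp2 2490, 2691 and 3052 in ICGN, against 2826, 2712 and 2836 in ICR. Neither was called, at 0.06 and -0.03. Mcoln1, the calcium channel TRPML1, was lower at 8 weeks (-0.48 ± 0.15, adjusted p = 0.0241), a call lost under the authors' scaling, quantile normalization, the stricter filter and without ICGN replicate 2, ICGN replicate 3 or ICR replicate 3 (highest adjusted p = 0.124). A second Mcoln1 probe set gave -0.30 without a call (adjusted p = 0.06 over probe sets).

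Grn, the gene of progranulin, a secreted protein that also reaches lysosomes, read 441, 413 and 462 in ICGN, against 264, 345 and 405 in ICR at 8 weeks (0.39 ± 0.14, adjusted p = 0.0389). Its other 2 probe sets, both of the less specific x type, gave 0.20 and 0.15 without a call, and among fits without 1 array the call held only without ICR replicate 3 (highest adjusted p over all alternatives 0.188). The array median, no filter, the mean of the probe sets, only the 6 arrays compared and no mean-variance trend ended the Grn call. Tfeb read 106, 112 and 109 in ICGN, against 101, 104 and 94.1 in ICR at 4 weeks, and 85.04, 76.9 and 68.0 in ICGN, against 63.7, 65.3 and 66.3 in ICR at 8 weeks. At each age every ICGN array was above every ICR array, but by only 0.12 ± 0.10 (adjusted p = 0.608) and 0.21 ± 0.10 (adjusted p = 0.125), so the Tfeb transcript was not called.

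**Figure D2:**
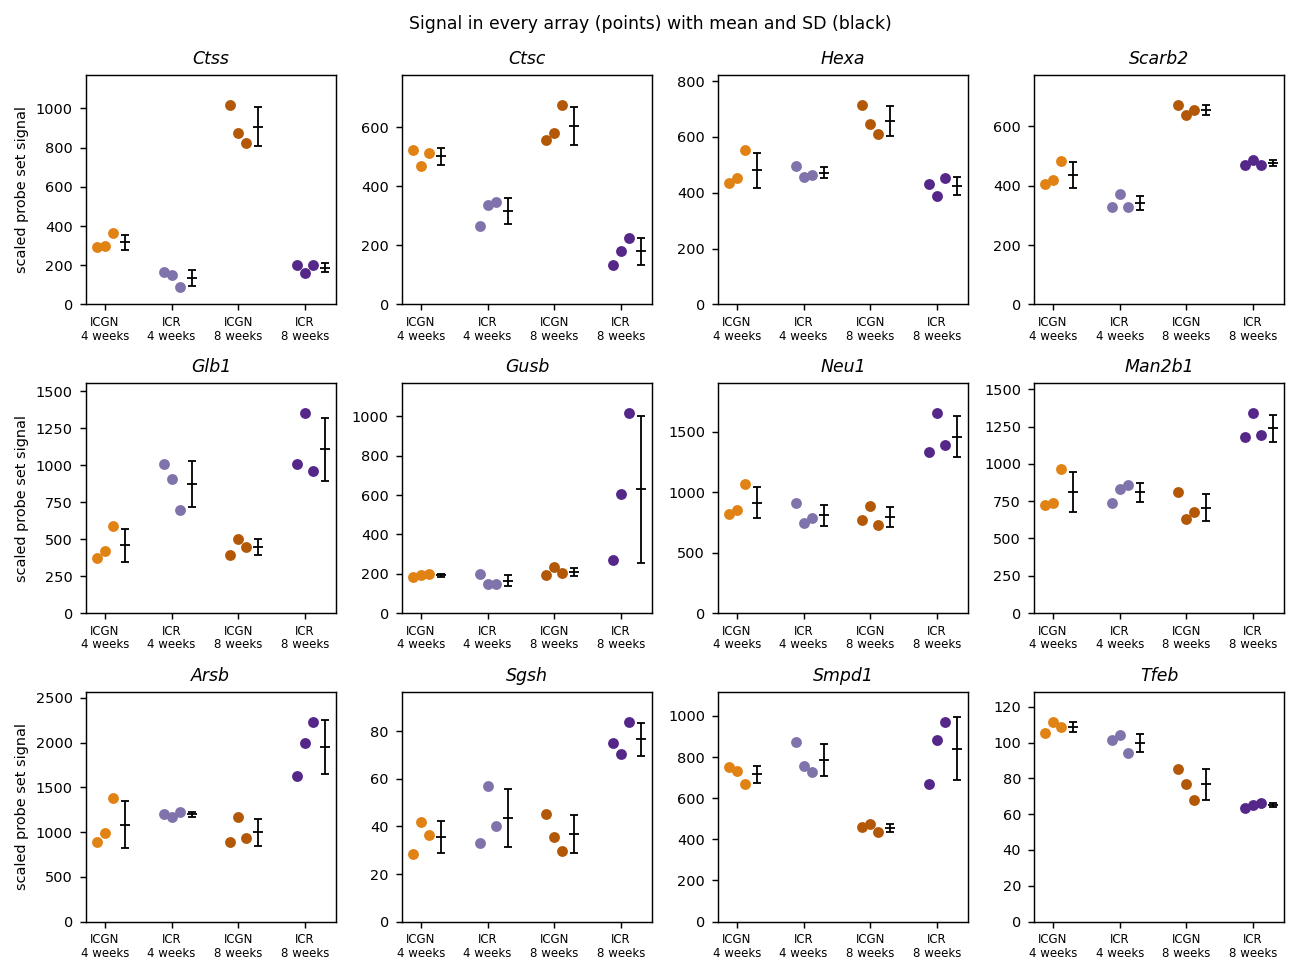
Scaled probe set signal (y axis, linear from 0) of 12 lysosomal genes, by strain and age (x axis). Points are arrays, and black marks are the mean and SD of 3 arrays. Ctss is highest in the 8-week ICGN arrays (826 to 1020), while Neu1, Man2b1 and Arsb are highest in the 8-week ICR arrays.

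Part of the proximal tubule markers were lower in the 8-week ICGN arrays, in which 6 of 11 glycosidases and 3 of 4 sulfatases were lower. Of 14 tested markers 9 were lower (64.3%), 0 higher and 5 not called at 8 weeks, with a median of -0.43, led by Slc22a6 (-1.04 ± 0.14), Slc13a3 (-0.86 ± 0.10), Slc5a2 (-0.83 ± 0.21) and Miox (-0.69 ± 0.10), and none was called at 4 weeks. Among all tested genes 22.2% were lower and 11.7% higher at 8 weeks, with a median of -0.10. With the authors' scaling 2224 of all genes were higher and 1487 lower, and no marker list was refitted under it. The summed signal of the 14 markers was 30400 to 40200 in ICGN and 35700 to 42300 in ICR at 4 weeks, and 28700 to 32700 in ICGN and 40400 to 44800 in ICR at 8 weeks. No marker of the list was at 0 on any array. The part of this segment in the lower signals was not tested. Of 8 tubular injury markers that were tested, 3 (Lcn2, Krt20 and Sox9) passed the filter only through ICGN arrays, which favours a higher call. Of the other 5, 5 were higher at 8 weeks, with Havcr1 at 4.06 ± 0.36, and 2 at 4 weeks, with Havcr1 at 3.63. Of 9 fibroblast markers 6 were higher at 8 weeks (median 0.66, Col1a1 at 1.28 ± 0.24), and at 4 weeks Col3a1 was lower (-0.51). Of 4 podocyte markers Synpo alone was higher at 8 weeks (0.53), and 0 were called at 4 weeks.

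The difference between the strain comparisons was tested directly, as the 8-week value minus the 4-week value. It passed for 4 members on the higher side (9.76%, against 3.88% of all genes) and 7 on the lower side (17.1%, against 6.77%). Ctsc (1.09 ± 0.22, adjusted p = 0.0106), Ctss (0.99 ± 0.27, adjusted p = 0.034), Hexa (0.61) and Arsa (0.55) had a more positive strain difference at 8 weeks. Gusb (-1.61 ± 0.45, adjusted p = 0.0374), Neu1 (-1.04 ± 0.17, adjusted p = 0.00392), Man2b1 (-0.80), Arsb (-0.80), Smpd1 (-0.73), Galc (-0.71) and Ids (-0.49) had a more negative one. Ctsc and Neu1 passed under each of the 11 alternatives and without any 1 of the 12 arrays. Their second probe sets were not called for this difference (0.55 and -0.64, limma adjusted p = 0.312 and 0.21 over probe sets). Each of the other 9 lost its call in at least 1 of these fits. Of the 11 alternatives Ids held in 2, Arsb in 5 and Arsa in 6. Of the 12 fits without 1 array, Ctss held in 5, Galc in 4, Gusb and Arsb in 3, and Arsa and Ids in 2. Hexa held in 10 of those 12, Smpd1 in 11 and Man2b1 in 12. Of all genes 481 were on the higher side and 839 on the lower side, against 651 and 461 with the authors' scaling.

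The comparisons of 8 with 4 weeks use the same arrays and give the difference between the ages within each strain. In ICGN cortex 3 members were higher at 8 weeks (7.32%, against 9.77% of all genes) and 4 lower (9.76%, against 13.6%). In ICR cortex 15 were higher (36.6%, against 19.6% of all genes) and 6 lower (14.6%, against 13.8%). Of the 15, 14 were not called in ICGN, which by itself is no test of a difference. With the authors' scaling ICR had 11 higher and 8 lower members, and all genes split into 1553 higher and 2541 lower, against 2426 and 1715 here. The authors scaled the arrays of the 2 ages to different targets, and the labels do not say whether the ages were processed together, so age and any separate processing cannot be told apart in these comparisons.

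These comparisons share their 8-week arrays with the strain comparison, so the values are given side by side and not as separate support. Neu1 was at -0.19 ± 0.12 for 8 over 4 weeks in ICGN (adjusted p = 0.281), against 0.84 ± 0.12 in ICR (adjusted p = 1.99e-04). Gusb was at 0.12 ± 0.32 in ICGN, against 1.73 ± 0.32 in ICR (adjusted p = 0.00106). Further examples are Galc, at 0.04 in ICGN and 0.75 in ICR, Man2b1, at -0.19 and 0.61, Arsb, at -0.11 and 0.69, and Ids, at 0.23 and 0.72. On the probe sets that stand for these genes, each ICR change passed and each ICGN change did not. For these 6 genes the interaction above is the test of that difference. Smpd1 differed in form, since it was lower at 8 weeks in ICGN (-0.64 ± 0.12, adjusted p = 0.0023) and was not called in ICR (0.09). Its other probe set was not called in ICGN (-0.18, adjusted p = 0.415 over probe sets). Sgsh (0.05 in ICGN and 0.78 in ICR) and Lipa (0.46 in ICGN and 1.08 in ICR) did not pass the test of the difference, with an adjusted p of 0.107 for Sgsh and 0.121 for Lipa. A dimmer Arsb probe set was lower at 8 weeks in ICGN (-0.55, limma adjusted p = 0.0228 over probe sets) and not called in ICR (0.21). So was a dimmer Galc probe set (-1.12, adjusted p = 0.0109, and -0.41), and that of Man2b1 was called in neither strain (-0.76 and -0.17). A further probe set each of Gusb (1.17), Neu1 (1.13) and Ids (0.39) was higher at 8 weeks in ICR and not called in ICGN.

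The cathepsins and the membrane genes had other courses. Ctss was higher at 8 weeks in ICGN (1.5 ± 0.19, adjusted p = 1.64e-04) and did not pass in ICR (0.51 ± 0.19, adjusted p = 0.0538). Ctsc was not called in ICGN (0.27) and was lower at 8 weeks in ICR (-0.82 ± 0.16, adjusted p = 0.00138). Its second, dimmer probe set went otherwise. That probe set was higher at 8 weeks in ICGN (1.04, limma adjusted p = 0.00465 over probe sets) and not called in ICR (0.49, adjusted p = 0.11). Hexa was higher at 8 weeks in ICGN (0.45 ± 0.10, adjusted p = 0.00678) and was not called in ICR (-0.15). Scarb2 was higher at 8 weeks in both strains, by 0.59 in ICGN and 0.47 in ICR. Its second probe set was called in ICR (0.38, adjusted p = 0.0303 over probe sets) but not in ICGN (0.17, adjusted p = 0.356). Tfeb was lower at 8 weeks in both strains, with -0.48 in ICGN (adjusted p = 0.0046) and -0.58 in ICR (adjusted p = 8.41e-04). So were Cln3 (-0.59 and -0.61) and Ctsf (-0.68 and -0.47). For these too, age and any separate processing cannot be told apart.

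**Figure D3:**
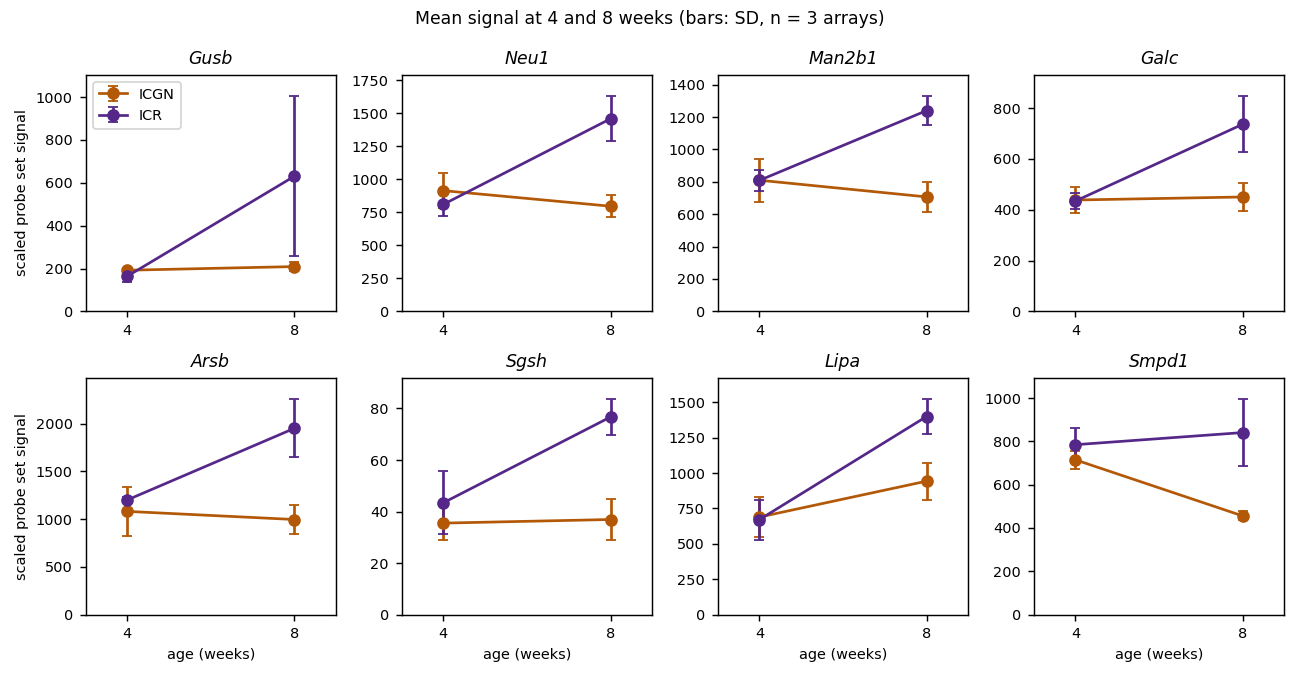
Mean scaled signal (y axis, linear from 0) at 4 and 8 weeks (x axis) of 8 hydrolase genes in ICGN (orange) and ICR (purple), with SD over 3 arrays. For Neu1, Man2b1, Galc and Arsb the strains lie close at 4 weeks and the ICR line lies higher at 8 weeks. On the probe sets plotted, these genes had no call over age in ICGN. For Smpd1 the ICGN line goes down (-0.64).

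Other genes of the lysosome, 78 of 88 listed being tested, were read beside the members. At 8 weeks 13 of the 78 were higher (16.7%) and 26 lower (33.3%), with a median of -0.20, against 11.7% higher, 22.2% lower and a median of -0.10 for all genes, and at 4 weeks 5 were higher and 1 lower. The calls of all genes turn to more higher than lower with the authors' scaling, as given above, and the lists that follow were not refitted under it. Of 17 proton pump subunits 6 were lower and 1 higher at 8 weeks. Those lower were led by Atp6v0a2 (-0.68 ± 0.10), Atp6v1e1 (-0.49) and Atp6v1d (-0.45), and Atp6v0d2, an isoform known from osteoclasts and macrophages, was higher at 4 weeks (0.77) and at 8 weeks (0.37 ± 0.12). Of 16 further hydrolases 1 was higher and 5 lower, among them Galns (-0.78), which like Arsb is a sulfatase, and Gm2a (-0.60), the activator that works with Hexa. Hexa and Gm2a thus stood on opposite sides.

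Of 15 further membrane proteins 4 were higher and 5 lower at 8 weeks. The sialic acid exporter gene Slc17a5, whose product acts after Neu1, was lower at -1.02 ± 0.11 (adjusted p = 2.11e-05), as was Tmem192 (-0.72). Cd68 (1.32 ± 0.18), which stands in the macrophage list too, and the macrophage metal transporter gene Slc11a1 (0.68) were higher, and Slc11a1 was higher at 4 weeks also (0.61). Of 12 sorting genes 2 were higher and 4 lower, with Gga1 at -0.83 and the mannose 6-phosphate receptor gene M6pr at -0.51, while Gnptab, which makes the mannose 6-phosphate tag, was higher (0.48).

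Among 14 genes of the TFEB family and of nutrient sensing 2 were higher and 6 lower at 8 weeks. Rragd, the gene of the GTPase RagD, averaged 453 ± 69.3 in ICGN, against 195 ± 11.9 in ICR (SD, n = 3 arrays each), and was higher (1.18 ± 0.11, adjusted p = 8.92e-06), and also at 4 weeks (0.67, adjusted p = 0.00445). Mitf was higher at 8 weeks (0.40 ± 0.11). Mtor (-0.62) and the Ragulator subunit gene Lamtor5 (-0.50) were lower, Lamtor5 also at 4 weeks (-0.46). Of 4 tested protease inhibitors 3 were higher at 8 weeks and 0 lower. Cstb, a cystatin that blocks cysteine cathepsins, was at 0.78 ± 0.11, and the serpin genes Serpinb6a and Serpinb1a were at 1.43 ± 0.11 and 1.12 ± 0.23. Both serpin genes were higher at 4 weeks too (0.52 and 1.20).

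**Figure D4:**
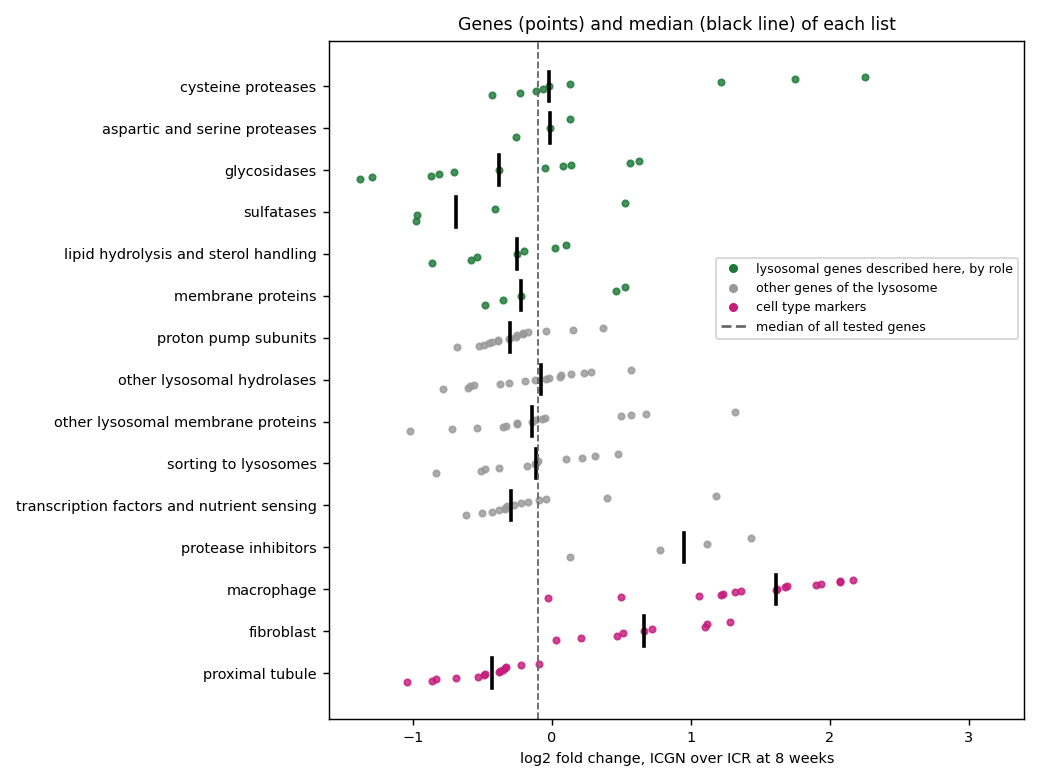
Log2 fold change (ICGN over ICR at 8 weeks, x axis) of each tested gene of 15 lists (y axis): members by role in green, other lysosomal genes in grey, cell type markers in pink. Black lines are list medians and the dashed line is the median of all tested genes (-0.10). Macrophage markers (median 1.62 of 16, of which 2 passed the filter only through ICGN) lie with Ctss and Ctsc, and sulfatases (median -0.69) and proximal tubule markers (median -0.43) lie on the lower side.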

How the data were processed

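The authors deposited a linear signal intensity for each probe set and array. MAS5 made it, per the submitters' processing notes, which state no version. Its mean after trimming 2% at each end was 100 in each 4-week and 500 in each 8-week array. From those intensities, arrays were scaled to one median of the tested probe sets (78.5), and log2(signal + 4.96) was taken, where 4.96 is the table's lower quartile. Fold changes of dim genes are understated on that scale. A probe set was tested if above its array median in at least 3 of 12 arrays (24790 passed). The brightest probe set stood for a gene, _x_at types last. Of 45101 probe sets 64 were controls, 34958 had 1 symbol, 932 several and 9211 none. One limma 3.58.1 fit (R 4.3.3) of 4 group means with a mean-variance trend, tested on simulated data, had 8 residual degrees of freedom.

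All members were eligible to be named. Array values are given for Tfeb, Lamp1, Lamp2, members called at 4 weeks, up to 10 largest rises and 8 largest falls among members called at 8 weeks and the 4 largest called differences between the ages, and for each other list up to 4 called genes at 8 and 2 at 4 weeks. Array values of Ctsk, which was not called, and Ctsh, and further genes named in passing, were added after their values were seen. Members, lists and motifs were chosen with earlier results of these data known. Alternatives concerned scaling, offset, filter, probe set choice, arrays fitted, variance model, replicate number and each array left out.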

Additional observations from a re-analysis of the deposited data

Results flagged for a closer look

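For 11 members the strain difference at 8 weeks differed from that at 4 weeks by the interaction test of the fit. The log2 values of the 8-week minus the 4-week difference were 1.09 for Ctsc (strain differences of 1.75 at 8 weeks and 0.66 at 4 weeks), 0.99 for Ctss (2.25 and 1.26), 0.61 for Hexa (0.63 and 0.02) and 0.55 for Arsa (0.53 and -0.01). On the other side they were -1.61 for Gusb (-1.38 at 8 weeks and 0.23 at 4 weeks), -1.04 for Neu1 (-0.87 and 0.17), -0.80 for Man2b1 (-0.81 and -0.01), -0.80 for Arsb (-0.97 and -0.17), -0.73 for Smpd1 (-0.86 and -0.13), -0.71 for Galc (-0.70 and 0.01) and -0.49 for Ids (-0.41 and 0.08). Limma adjusted p-values ran from 0.00392 for Neu1 to 0.0471 for Arsa. The calls of Ctsc and Neu1 held under every alternative and without any 1 array. Each of the others was lost in at least 1 of those fits. The second probe sets of Ctsc (0.55, adjusted p = 0.312 over probe sets) and Neu1 (-0.64, adjusted p = 0.21) were not called. Groups of 3 arrays are too small for a test of an outlying array.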

How the results depend on the processing

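No member called in a strain comparison or in the difference between the ages changed direction there under the alternatives or without 1 array. Directions over age were not followed gene by gene. The stricter filter tested 35 members, and the fit of only the 6 arrays compared could not be made for the difference between the ages. Members higher at 4 weeks numbered 4 as reported, 1 with scaling to the array median of all probe sets, 1 without the filter, 1 without the mean-variance trend and 2 with the replicate block, and 1 to 2 without 1 array. The count lower at 4 weeks was 1, and 0 to 1 without 1 array. At 8 weeks the higher count was 8 as reported and 5 without the filter (5 to 7 without 1 array), and the lower count was 15 as reported and 9 under quantile normalization (12 to 16 without 1 array). For the difference between the ages the higher count of 4 became 2 with the array median, 1 without the filter and 2 without the trend (1 to 4 without 1 array). The lower count of 7 became 1 under quantile normalization, 3 without the filter, 2 with the mean of a gene's probe sets and 3 without the trend (2 to 7 without 1 array). Over age in ICGN the higher count of 3 became 6 with the mean of the probe sets and 5 with the replicate block (3 to 4 without 1 array), and the lower count was 4 (3 to 5 without 1 array). Over age in ICR the lower count of 6 became 3 with the array median, 3 without the filter and 3 with only the 6 arrays compared (3 to 6 without 1 array), and the higher count of 15 ran from 11 to 16 without 1 array. Of all genes at 8 weeks 1443 were higher and 2747 lower, against 2224 and 1487 with the authors' scaling, 1055 and 3229 with the array median, 1702 and 1667 under quantile normalization and 1217 and 1567 with the filter at the 75th percentile. At 4 weeks 261 and 241 became 144 and 132 without the filter. For the difference between the ages 481 and 839 became 651 and 461 with the authors' scaling, 277 and 707 with the array median, 486 and 413 under quantile normalization, 192 and 488 without the filter, 477 and 506 with the stricter filter and 380 and 536 without the trend. Over age in ICGN 1210 and 1688 became 800 and 1590 with the array median and 707 and 1401 without the filter. Over age in ICR 2426 and 1715 became 1553 and 2541 with the authors' scaling, 1729 and 2093 under quantile normalization and 1377 and 1695 with the stricter filter. Centring on the tested genes' median, chosen after seeing the data, gave 8 higher and 15 lower members at 8 weeks. Where no cause follows from the setting itself, the cause was not tested.

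Replicate numbers are shared by the groups, but deviations of same-numbered arrays correlated with r between -0.094 and 0.088, so no pairing was taken, and of 6 arrays a comparison, 1 to 3 correlated best with their own number. With the replicate block 7 members were higher and 16 lower at 8 weeks. Arrays number 3 a group, which limits precision, and dim members such as Gla, Sgsh, Ctsk and Npc1 lie below the median of the tested probe sets in at least 1 group.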
